A study of Homo sapiens and Mus musculus with 36 samples.

Results

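Hairpin #665 is 1 of the short hairpin RNAs directed against SREBF2, the gene of the transcription factor SREBP2, in HepG2, a human liver cancer cell line. The comparison sets the group labelled HepG2 shSREBP2 #665 (2 libraries) against the group labelled HepG2 shControl (2 libraries), together 4 of the 36 libraries of the series. The whole series holds 18 groups of 2 libraries from HepG2, Huh7 and a mouse B-lymphoma line, treated with EZH2-directed compounds or carrying hairpins. Cells of both groups were infected with pLKO.1-puro lentivirus, selected with puromycin and grown in RPMI1640 with serum, and the control is called an empty vector in one label and a scramble in another. The labels do not give the hairpin's target site, the time after infection, the kit used for each library or whether the 2 libraries of a group were separate cultures, so every p-value measures only the spread between libraries, which can be technical. Hairpins #664 and #667 against the same gene were read in 2 libraries each against the same pair of control libraries, and so were the HepG2 libraries labelled shEZH2.

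Values per library were not analysed here. The authors' deposited table of hairpin #665 gives each gene a mean over the 4 libraries, a log2 fold change over control with its standard error (SE) and an adjusted p-value, all from 2 libraries per group. It holds 17249 genes, of which 16093 had a mean of at least 10 normalized counts and were taken as tested, leaving 1156 below that minimum. At the minimum, SDHAP2 lay just inside with a mean of 10.01 normalized counts and a log2 fold change of -3.04 in the authors' deposited table, and CHRNG just outside with a mean of 9.999 and 7.28. A gene is called when the deposited adjusted p is under 0.05. Each group's level in normalized counts was rebuilt from the mean and the fold change, and such a level carries no spread of its own. The hepatocyte products ALB and AFP, which mark this line, stood at 226752 and 71017 normalized counts with #665, against 199129 and 129992 in control.

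SREBP2 is held in the membrane of the endoplasmic reticulum together with SCAP and the INSIG proteins. When membrane cholesterol runs low, SCAP escorts it to the Golgi, where proteases release the part that enters the nucleus and switches on the genes of cholesterol synthesis and sterol uptake. Its relative SREBP1, from the gene SREBF1, acts more on fatty acid synthesis, and liver cells use both programmes to supply the lipids of the lipoproteins they secrete.

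The targeted gene was read first. SREBF2 (GRCh38, chromosome 22, 41833079 to 41907308, plus strand) stood at 1997 normalized counts with #665, at 1417 with #664 and at 829 with #667, against 4228 in control. The level with #665 was 47.2% of control, the highest of the 3 hairpins. For #665 the authors' deposited table put the change at -1.08 on the log2 scale (SE 0.12, adjusted p = 2.38e-17), and those of the other hairpins gave -1.58 (SE 0.06) for #664 and -2.35 (SE 0.42) for #667. The difference of #665 from #664 was 0.50 (95% interval 0.23 to 0.76, adjusted p = 0.00334), which passed. The difference from #667 was larger at 1.27, but with its interval of 0.42 to 2.12 it missed the threshold (adjusted p = 0.0527), and with #667 the SE of SREBF2 exceeded the usual SE at its mean by 1.91 (log2). In RNA from a whole culture, fewer cells with a transcript and less of it per cell cannot be told apart.

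Every measured gene of cholesterol synthesis was lower with #665. All 21 were called lower and none higher, beside 21.3% of the 16093 tested genes called lower and 19.6% called higher (41.0% in either direction). The median log2 fold change of the list was -1.45, against 0.01 over all tested genes, and the summed level of its members was 40197 normalized counts with #665, against 108566 in control. With #664 all 21 were lower too (median -1.61, beside 28.7% of its tested genes called lower, 26.1% higher and 54.8% in either direction), and with #667 there were 19 (median -1.86, beside 19.8% lower, 19.0% higher and 38.8% in either direction). The libraries labelled shEZH2 also had 21 lower members (median -1.13, beside 30.6% called lower, 29.9% higher and 60.4% either way), while the authors' deposited table gave SREBF2 itself 0.43 (SE 0.35, not called) there and EZH2 0.90, higher than control and so against the label. All these comparisons share the same control libraries, and the part of those libraries in the result was not tested.

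**Figure D1:**
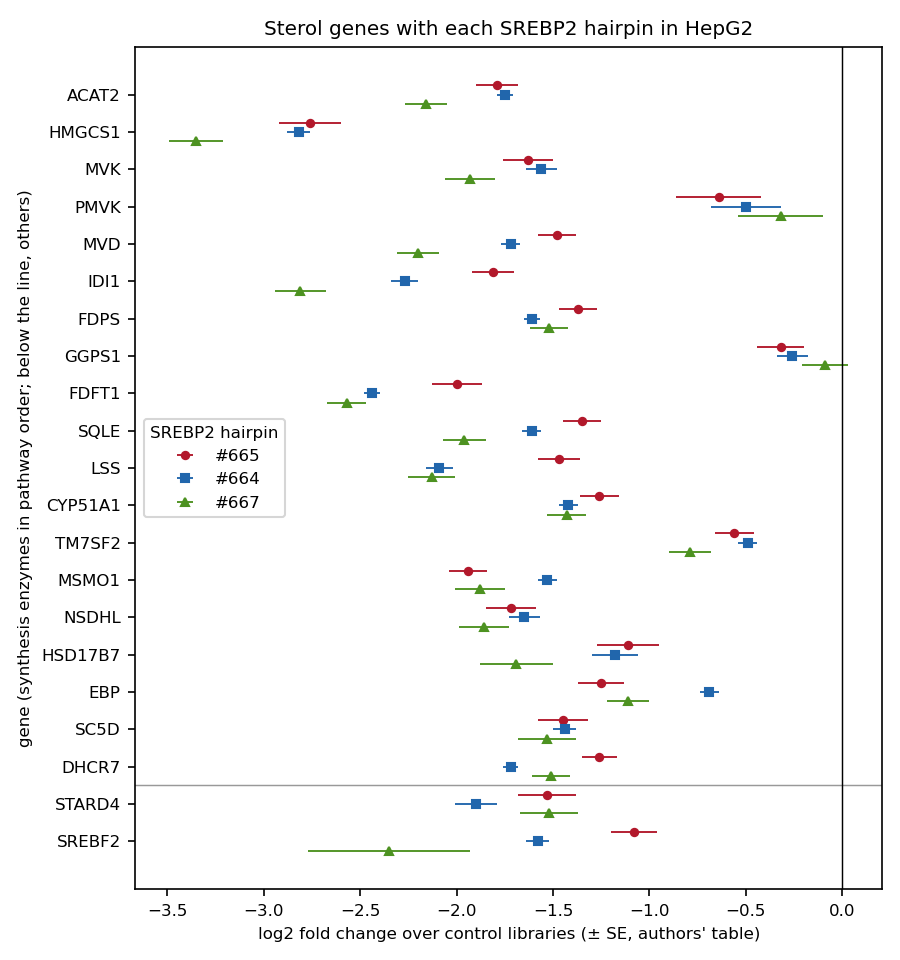
Log2 fold change over control (horizontal axis, with bars of ± 1 SE, from the authors' tables) of sterol genes with each SREBP2 hairpin, for #665 (circles), #664 (squares) and #667 (triangles). Each synthesis gene drawn lies left of 0 with #665, between -2.76 and -0.32, and most points of #667 lie further left.

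Single enzymes fell to very different extents. HMGCS1 (chromosome 5, 43289395 to 43313512, minus strand), which makes the HMG-CoA that the pathway starts from, stood at 879.8 normalized counts with #665, at 842 with #664 and at 585 with #667, against 5962 in control. It was the lowest of the list at -2.76 (SE 0.16) in the authors' deposited table of #665. ACAT2, which condenses acetyl-CoA, was at -1.79 (SE 0.11), and the mevalonate kinase gene MVK at -1.63 (SE 0.13), in the authors' deposited table of #665. At the other end of the range, the authors' deposited table gave -0.32 (SE 0.12) for GGPS1, which makes the geranylgeranyl group used to anchor proteins, -0.56 for the sterol reductase gene TM7SF2 and -0.64 for the phosphomevalonate kinase gene PMVK.

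In 3 enzymes #665 lowered the RNA less than both other hairpins did. To test a difference, the fold change of another hairpin was subtracted from that of #665, which removes the control, and p-values were adjusted over all genes tested in both. Over all genes, 12.7% differed between #665 and #664 (5.49% higher and 7.22% lower with #665) and 6.28% between #665 and #667 (2.88% higher and 3.40% lower). Those are 2021 and 987 genes. For the shared control, a correlation of 0.5 between the fold changes of every gene was assumed as an alternative, not estimated from the data. It gave 3857 (1965 higher and 1892 lower) and 2840 (1389 higher and 1451 lower). The shares rest on that choice, and the lean to lower genes against #664 did not hold under it. With #665, 1.14% of genes were higher and 1.83% lower than with both. LSS, which closes the sterol ring, stood at 1127 normalized counts with #665, at 733 with #664 and at 710.4 with #667, against 3116 in control. Its difference was 0.62 from #664 (interval 0.37 to 0.87, adjusted p = 3.56e-05) and 0.67 from #667 (interval 0.35 to 0.98, adjusted p = 0.0012). IDI1, an isomerase of the isoprenoid steps, stood at 966 normalized counts with #665, at 705 with #664 and at 485 with #667, against 3397 in control, with differences of 0.45 and 0.99 (adjusted p = 0.00567 and 4.08e-07). FDFT1, which commits the pathway to sterols by making squalene, stood at 2831 normalized counts with #665, at 2089 with #664 and at 1910 with #667, against 11301 in control. Its differences were 0.44 and 0.57 (adjusted p = 0.0118 and 0.0112).

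The other differences within the pathway went both ways. From #667, 6 members were lowered less by #665 and none more (median difference over the list 0.26, against 0.02 over all genes). Among them was the mevalonate decarboxylase gene MVD (0.72, adjusted p = 1.33e-04). From #664, 4 were lowered less and 3 more (median difference 0.06, against 0.04 over all genes). Among those lowered more by #665 were EBP (difference -0.56, adjusted p = 2.57e-04), which shifts a double bond in the ring, and MSMO1 (-0.42, adjusted p = 0.00591), which helps remove ring methyl groups.

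Because the 21 members moved together, their promoters were read in RefSeq (GRCh38.p14), in a window of 250 bases before to 50 after each gene's start, with both strands searched. Of the 21 members, 16 matched a promoter there. The letters CCAAT, the core of the box bound by NF-Y, were found in 12 of these 16 (75.0%), against 36.8% of the 10865 tested genes with a promoter and 35.7% of all 27305 promoters. The letters TCACNCCAC, a strict form of the sterol regulatory element, were in none of the 16, against 1.07% of tested promoters. A pattern this rare is seldom met in 16 promoters, so its absence does not tell whether they hold other forms of the element. The letters CACGTG were in 2 (12.5%), against 10.0%. These are matches of letters in a window and no measure of binding. The 250 bases before the RefSeq start of 2 genes with the letters and of 1 without are shown as examples, each read 5′ to 3′ on the gene's strand, with CCAAT or its reverse complement ATTGG in capitals.
HMGCS1 (chr5:43313413-43313662, minus strand): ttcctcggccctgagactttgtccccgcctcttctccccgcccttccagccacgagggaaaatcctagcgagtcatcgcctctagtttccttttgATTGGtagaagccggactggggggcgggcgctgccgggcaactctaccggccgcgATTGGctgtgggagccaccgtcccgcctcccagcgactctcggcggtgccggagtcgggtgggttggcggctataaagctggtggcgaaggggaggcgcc
MSMO1 (chr4:165327419-165327668, plus strand): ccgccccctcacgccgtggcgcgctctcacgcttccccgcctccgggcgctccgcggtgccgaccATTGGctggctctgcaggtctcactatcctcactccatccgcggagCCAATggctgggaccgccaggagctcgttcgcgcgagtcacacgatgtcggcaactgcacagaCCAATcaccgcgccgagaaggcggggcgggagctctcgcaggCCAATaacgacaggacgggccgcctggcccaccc
IDI1 (chr10:1056705-1056954, minus strand): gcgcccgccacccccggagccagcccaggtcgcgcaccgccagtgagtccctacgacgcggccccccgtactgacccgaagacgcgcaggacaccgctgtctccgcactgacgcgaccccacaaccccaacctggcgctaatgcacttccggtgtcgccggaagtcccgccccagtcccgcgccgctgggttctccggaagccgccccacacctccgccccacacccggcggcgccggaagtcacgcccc
HMGCS1 held the letters 2 times, beginning 155 and 100 bases before the start, and MSMO1 4 times, beginning 185, 139, 76 and 34 bases before it. IDI1 held none in this stretch, which precedes its RefSeq start. The GENCODE annotation instead places IDI1 at 1039152 to 1049170 on the minus strand. The IDI1 stretch shown lies outside that gene and upstream of it, whereas those of HMGCS1 and MSMO1 include their GENCODE starts. Whether the letters precede the GENCODE start of IDI1 was not tested. The authors' deposited table of #665 gave -2.76 for HMGCS1, -1.94 for MSMO1 and -1.81 for IDI1.

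Outside synthesis, the genes of sterol uptake and sensing were called lower with #665 in 8 of 18 measured cases (44.4%) and higher in none (median -0.21). Of all genes tested with #665, 21.3% were lower and 19.6% higher. With #664 the list had 61.1% lower and 22.2% higher, beside 28.7% and 26.1%, and with #667 44.4% and 5.56%, beside 19.8% and 19.0%. STARD4, a cytosolic sterol carrier, and TMEM97, a membrane protein that binds NPC1, were at -1.53 and -1.10 in the authors' deposited table of #665. INSIG2, which retains SCAP in the endoplasmic reticulum, stood at 1832 normalized counts with #665, at 3311 with #664 and at 4136 with #667, against 1909 in control. Its rise with both other hairpins (0.79 and 1.12 in the authors' deposited tables) was not seen with #665 (-0.06, SE 0.12), and both differences passed (-0.85, adjusted p = 7.19e-09, and -1.18, adjusted p = 1.94e-07).

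Fatty acid synthesis was lower as well, but less so than with #664. Of 16 measured members, 12 were called lower and 2 higher with #665 (median -0.74), against 11 lower and 4 higher with #664 (median -1.01). With #667, 10 were lower and 2 higher (median -0.89). The lower shares with #665, #664 and #667 were 75%, 68.8% and 62.5%, beside 21.3%, 28.7% and 19.8% of all tested genes. The higher shares were 12.5%, 25% and 12.5%, beside 19.6%, 26.1% and 19.0%. By the test of the difference, 8 of the 16 lay higher with #665 than with #664 and 2 lower, while none lay higher and 1 lower than with #667. Over all genes 5.49% were higher and 7.22% lower than with #664, and 2.88% and 3.40% than with #667. SREBF1 stood at 2168 normalized counts with #665, at 865 with #664 and at 1945 with #667, against 4064 in control, and it differed from #664 by 1.33 (adjusted p = 1.21e-26). SCD, the desaturase that makes monounsaturated fatty acids, stood at 16912 normalized counts with #665, at 7709 with #664 and at 19740 with #667, against 42534 in control. In the authors' deposited tables SCD was at -1.33 (SE 0.09) with #665, at -2.46 with #664 and at -1.11 with #667. FASN, the fatty acid synthase gene, was likewise lowered less by #665 (-0.67) than by #664 (-1.36) in the authors' deposited tables, with a difference of 0.68. FADS2, a desaturase of polyunsaturated fatty acids, was at -2.18 (SE 0.12) and the acetyl-CoA carboxylase gene ACACA at -1.21 (SE 0.14) in the authors' deposited table of #665. MID1IP1, which helps acetyl-CoA carboxylase form filaments, stood at 196 normalized counts with #665, at 95.2 with #664 and at 320.2 with #667, against 1741 in control, and at -3.15 (SE 0.16) it was one of the 8 lowest with a mean of 100 or more, by the authors' deposited table of #665. The 2 that rose with #665 were MLXIPL (0.47), the gene of the carbohydrate-responsive factor ChREBP, and GPAM (0.38), which starts glycerolipid synthesis, in the authors' deposited table.

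Genes of lipid storage and breakdown split. In the lipid droplet and triglyceride list 5 of 17 measured members were higher and 7 lower with #665 (median -0.38), against 13 higher and 4 lower with #664 (median 0.71) and 5 higher and 4 lower with #667 (median -0.04). With #665 that was 29.4% higher and 41.2% lower, beside 19.6% and 21.3% of all its tested genes. With #664 it was 76.5% and 23.5%, beside 26.1% and 28.7%, and with #667 29.4% and 23.5%, beside 19.0% and 19.8%. PLIN2, which coats lipid droplets, stood at 4699 normalized counts with #665, at 8962 with #664 and at 7389 with #667, against 6225 in control. It fell with #665 (-0.41, SE 0.11, in the authors' deposited table) and lay below both other hairpins (differences -0.93 and -0.65, adjusted p = 2.53e-13 and 0.003). CIDEB, a droplet protein that helps load lipoproteins, was at -0.41 with #665, at 0.75 with #664 and at 0.15 with #667 in the authors' deposited tables, and both its differences passed too. ANGPTL4, a secreted inhibitor of lipoprotein lipase, stood at 94.4 normalized counts with #665, at 518 with #664 and at 367 with #667, against 45.1 in control. Among genes of fatty acid oxidation 6 of 14 were higher (42.9%) and 4 lower (28.6%) with #665, beside the same 19.6% and 21.3%. With #664, 10 were higher (71.4%) and 3 lower (21.4%), and with #667 7 were higher (50%) and 3 lower (21.4%). CPT1A, the carnitine shuttle that gates entry into mitochondria, was at 1.77 (SE 0.15) and ACAA2, a thiolase of beta-oxidation, at -0.79 (SE 0.14) in the authors' deposited table of #665. Of 9 targets of the sterol sensor LXR, 2 rose and none fell, a share of higher genes (22.2%) near that of all tested genes (19.6%). The 2 were ABCG5, a subunit of a sterol exporter (0.98, SE 0.18), and APOE (0.45, SE 0.08), in the authors' deposited table. With #664, 2 of the 9 rose (22.2%) and 4 fell (44.4%), and with #667 3 rose (33.3%) and 1 fell (11.1%). By the test of the difference 3 of the 9 lay above #664, beside 5.49% of all genes, and none below. From #667, 1 lay below, beside 3.40% of all genes, and none above.

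Over the whole transcriptome, the 6593 called genes split into 3158 higher and 3435 lower with #665. The higher ones changed more, with a median of 0.79, against -0.56 for the lower ones, and 1203 of the higher against 404 of the lower ones changed at least 2-fold. Of the called genes, 3702 (56.2%) were called the same way with both other hairpins, 1456 with #664 only, 397 with #667 only and 1038 (15.7%) with neither. Among the genes higher with #665, 588 (18.6%) were repeated by neither hairpin, and among the lower ones 450 (13.1%). A call that another hairpin misses is not by itself a difference. Of the 1038 genes repeated by neither, 899 lacked a passing difference from both. Median SEs were 0.17 for #665, 0.13 for #664 and 0.17 for #667, so the tables did not resolve changes equally.

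By the test of the difference itself, the effects that the other hairpins did not repeat come to 201 genes, called with #665 with differences from both #664 and #667 that passed in the direction of the change, 78 of them higher (0.498% of 15674) and 123 lower (0.785%). Of the 201, 139 were called the same way by neither hairpin, and the others changed the same way with at least 1 of them but less. With a correlation of 0.5 assumed for the shared control, 688 genes were set apart, 340 higher and 348 lower. Neither the number nor the excess of lower genes held under that alternative. For 40 genes, 14 higher and 26 lower, both other hairpins were called in the opposite direction. The longest annotated transcript of the set-apart genes had a median of 4900 nt for the higher ones and 2390 nt for the lower ones, against 3180 nt for all tested genes. Transcript length moved with the differences over all genes as well: from #664 their median was -0.13 among genes of up to 1468 nt and 0.11 among those from 7479 nt, and from #667 it was -0.12 and 0.12. With each difference centred on the median of genes of like length, an alternative chosen after seeing the data, 186 genes were set apart, of which 153 were among the 201.

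**Figure D2:**
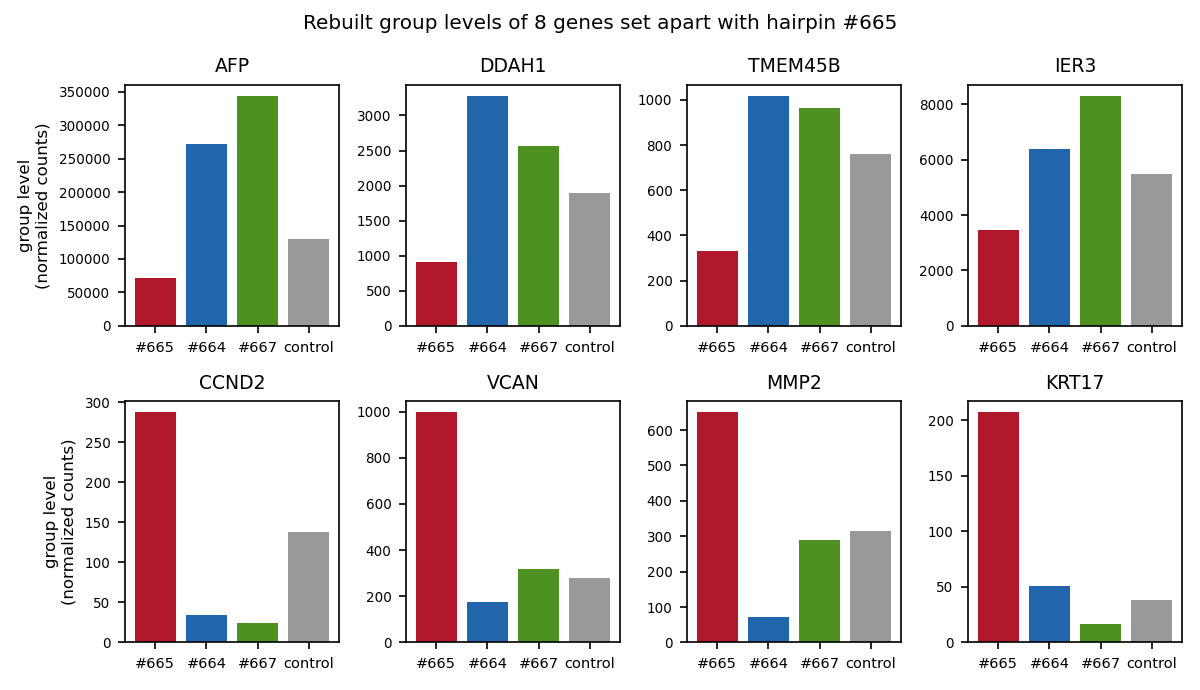
Rebuilt group levels (vertical axes, normalized counts, each panel with its own scale from 0) of 8 genes that were called with #665 and differed from both other hairpins, with bars for #665, #664, #667 and control and no spread per library. AFP, DDAH1, TMEM45B and IER3 are lowest with #665, and CCND2, VCAN, MMP2 and KRT17 are highest with it.

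Among the set-apart genes that rose, some changed several-fold with #665 and little or the other way with the other hairpins. KRT17, a keratin of stratified epithelia, stood at 207 normalized counts with #665, at 50.8 with #664 and at 16.3 with #667, against 38 in control. VCAN, a large matrix proteoglycan, stood at 996 normalized counts with #665, at 177 with #664 and at 318 with #667, against 277 in control. Its log2 fold change in the authors' deposited tables was 1.85 (SE 0.16) with #665, -0.64 with #664 and 0.20 with #667, so that the differences were 2.49 (adjusted p = 1.46e-22) and 1.65 (adjusted p = 1.64e-08). MMP2, a secreted gelatinase, stood at 649.5 normalized counts with #665, at 73.2 with #664 and at 288 with #667, against 314 in control. It too was high with #665 alone and lowest with #664. TIMP1, an inhibitor of such proteases, was at 0.62 (SE 0.11) with #665, at -0.18 with #664 and at -0.47 with #667 in the authors' deposited tables. CCND2 (chromosome 12, 4273772 to 4305350, plus strand), a cyclin of G1, stood at 287 normalized counts with #665, at 34.7 with #664 and at 24.1 with #667, against 138 in control. It rose with #665 (1.05, SE 0.22) and fell with the others (-1.99 and -2.52 in the authors' deposited tables), with differences of 3.04 (interval 2.29 to 3.79) and 3.57 (interval 2.67 to 4.48). CDKN2A, which encodes the cell cycle inhibitors p16 and ARF, also went opposite ways, with 1799 normalized counts with #665, 749 with #664 and 637 with #667, against 1078 in control. ALPL, a phosphatase that takes part in mineralization, and HOXA7, a homeobox factor, were at 2.31 (SE 0.29) and 2.26 (SE 0.31) in the authors' deposited table of #665 and were not called with either other hairpin. LTB4R, a leukotriene receptor, rose with all 3 hairpins, to 989 normalized counts with #665, 475 with #664 and 432 with #667, against 198 in control.

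The set-apart genes that fell included IGFBP2 (chromosome 2, 216632828 to 216664436, plus strand), which binds insulin-like growth factors. It stood at 140.1 normalized counts with #665, at 312 with #664 and at 1062 with #667, against 881 in control. The authors' deposited tables gave it -2.65 (SE 0.20) with #665, -1.50 (SE 0.12) with #664 and 0.27 (SE 0.14) with #667, and the differences were -1.16 (adjusted p = 2.81e-05) and -2.92 (adjusted p = 2.23e-28). The actin gene ACTA1 and the myosin light chain gene MYL6 fell with all 3 hairpins but most with #665, at -2.59 (SE 0.18) and -1.48 (SE 0.11) in its authors' deposited table. DPP4, a surface peptidase, stood at 946 normalized counts with #665, at 2119 with #664 and at 1620 with #667, against 2822 in control. DDAH1, which breaks down an inhibitor of nitric oxide synthase, stood at 918 normalized counts with #665, at 3278 with #664 and at 2562 with #667, against 1894 in control. It fell with #665 (-1.04, SE 0.12) and rose with the others (0.79 and 0.44) in the authors' deposited tables. The transcription factor genes EPAS1, which encodes HIF-2 alpha, and FOSL2, of the AP-1 family, were at -0.79 (SE 0.14) and -1.01 (SE 0.14) in the authors' deposited table of #665, against 0.15 and 0.16 with #664 and 0.05 and 0.05 with #667. VDAC2, a channel of the outer mitochondrial membrane, and PHYH, which starts the breakdown of branched fatty acids in peroxisomes, fell too, at -1.05 and -0.66 in the authors' deposited table of #665.

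The genes of apolipoproteins, the proteins of lipoprotein particles, stood lower with #665 than with the other hairpins. Of 13 measured apolipoprotein genes, 7 were higher and 3 lower with #665 (median 0.25), against 12 higher and none lower with #664 (median 0.63) and 11 higher and none lower with #667 (median 0.90). The higher share was 53.8% with #665, 92.3% with #664 and 84.6% with #667, beside 19.6%, 26.1% and 19.0% of all tested genes. The lower share with #665 was 23.1%, near the 21.3% of all its tested genes. No apolipoprotein gene was higher with #665 than with another hairpin, while 8 were lower than with #664, 10 lower than with #667 and 7 lower than with both. Over all genes 7.22% were lower than with #664, 3.40% lower than with #667 and 1.83% lower than with both. APOC3, which slows the clearance of triglyceride-rich particles, stood at 15299 normalized counts with #665, at 28709 with #664 and at 22984 with #667, against 6458 in control. APOA1, the main protein of HDL, stood at 332896 normalized counts with #665, at 576782 with #664 and at 439371 with #667, against 220022 in control. Both rose with every hairpin. For APOC3 the differences were -0.91 and -0.59 and both passed, while for APOA1 the difference from #664 passed (-0.79) and that from #667 did not (-0.40, adjusted p = 0.061). APOH, a phospholipid-binding plasma protein, instead fell with #665, to 31086 normalized counts, against 71635 with #664, 43473 with #667 and 39614 in control. APOA5, which promotes triglyceride clearance, and APOF were at -0.38 and -1.34 with #665 in the authors' deposited table, against 0.93 and -0.35 with #664 and 0.35 and 0.50 with #667. APOB, the backbone of LDL, was not called with #665 (0.12, SE 0.10, in the authors' deposited table).

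Of the hepatocyte marker list, with 22 measured members, #665 had 5 higher and 10 lower (median -0.11), against 13 higher and 7 lower with #664 (median 0.23). With #667, 11 were higher and 8 lower (median 0.25). The higher shares with #665, #664 and #667 were 22.7%, 59.1% and 50%, beside 19.6%, 26.1% and 19.0% of all tested genes. The lower shares were 45.5%, 31.8% and 36.4%, beside 21.3%, 28.7% and 19.8%. With #665, 14 of the 22 lay below #664, 8 below #667 and 6 below both, and 1 lay above each. Over all genes 7.22% lay below #664, 3.40% below #667 and 1.83% below both, and 5.49% lay above #664 and 2.88% above #667. AFP (chromosome 4, 73431138 to 73456174, plus strand), the fetal albumin relative, fell to 71017 normalized counts with #665 and rose to 271565 with #664 and 343494 with #667, against 129992 in control. The authors' deposited tables gave AFP -0.87 (SE 0.10) with #665, 1.06 with #664 and 1.40 with #667, and the differences were -1.94 (adjusted p = 1.45e-81) and -2.27 (adjusted p = 4.21e-64). ALB stood at 226752 normalized counts with #665, at 570754 with #664 and at 400172 with #667, against 199129 in control. It was not called with #665 (0.19, SE 0.08, adjusted p = 0.0594 in the authors' deposited table) and its differences passed (-1.33 and -0.82). TF, the iron carrier, and RBP4, the retinol carrier, were at -0.74 (SE 0.14) and -0.47 (SE 0.13) with #665 in the authors' deposited table, against 0.59 and 0.73 with #664 and 0.14 and 0.62 with #667. HNF4A, a central regulator of hepatocyte genes, was not called with #665 (-0.06, SE 0.09), and CEBPA, another, was at -1.04 (SE 0.14), in the authors' deposited table.

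Coagulation and complement counted 3 higher and 7 lower of 22 with #665 (median -0.11), against 13 higher and 6 lower with #664 and 8 higher and 3 lower with #667. In shares this was 13.6% higher and 31.8% lower with #665, beside 19.6% and 21.3% of all its tested genes. With #664 it was 59.1% higher and 27.3% lower, beside 26.1% and 28.7%, and with #667 36.4% higher and 13.6% lower, beside 19.0% and 19.8%. SERPIND1, a thrombin inhibitor, stood at 4732 normalized counts with #665, at 8729 with #664 and at 8387 with #667, against 9239 in control. SERPINC1, which encodes antithrombin, stood at 2428 normalized counts with #665, at 6681 with #664 and at 4935 with #667, against 2162 in control. The thrombin gene F2 and the factor XI gene F11 were at -0.30 and -0.46 with #665 in the authors' deposited table, against 0.13 and 0.44 with #664 and 0.20 and 0.33 with #667, and both differences of each passed. KNG1, the kininogen gene, rose with #665 (1.44), but less than with #664 (3.04) or #667 (2.41), in the authors' deposited tables.

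**Figure D3:**
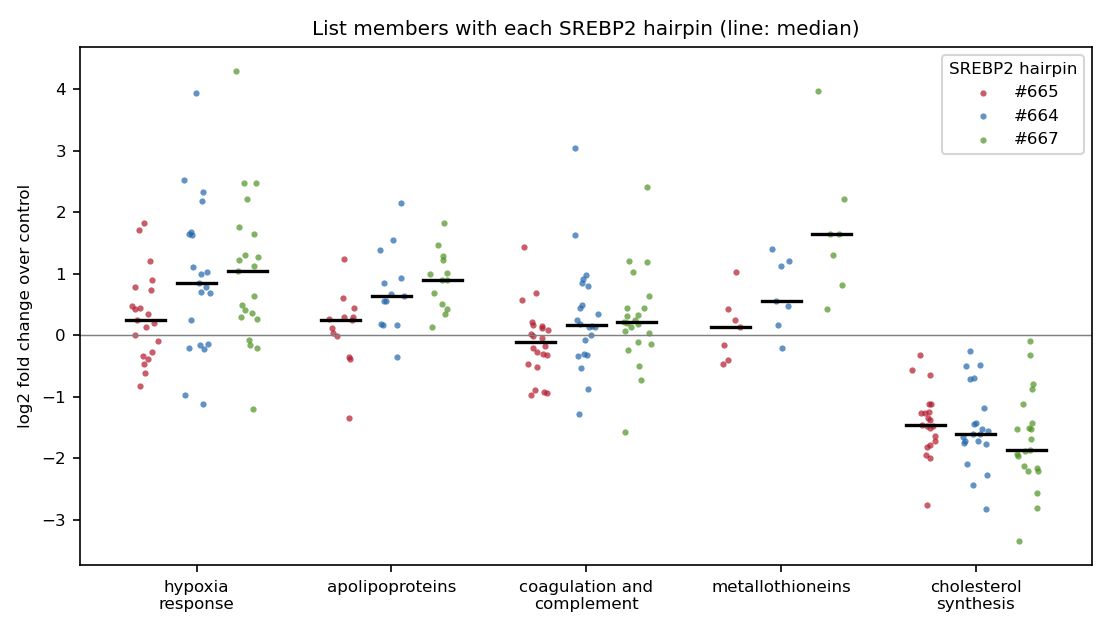
Log2 fold change over control (vertical axis, authors' tables) of each member of 5 gene lists with #665, #664 and #667, 1 point per gene, with a line at the median. Hypoxia and apolipoprotein genes lie lower with #665 than with the other hairpins, and the medians of cholesterol synthesis are -1.45, -1.61 and -1.86.

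Genes of the response to low oxygen, which the HIF factors switch on, stood mostly lower with #665 than with the other hairpins. Of 21 measured members 10 were higher and 6 lower with #665 (47.6% and 28.6%, beside 19.6% and 21.3% of all its tested genes), with a median of 0.24. With #664, 15 were higher and 6 lower (71.4% and 28.6%, beside 26.1% and 28.7%), with a median of 0.85. With #667, 16 were higher and 1 lower (76.2% and 4.76%, beside 19.0% and 19.8%), with a median of 1.05. In 9 members #665 lay below both other hairpins and in 1 above both, beside 1.83% and 1.14% of all genes. NDRG1, a stress-induced gene, stood at 1452 normalized counts with #665, at 3546 with #664 and at 3646 with #667, against 781 in control. ANKRD37 stood at 190.5 normalized counts with #665, at 928 with #664 and at 899.9 with #667, against 161 in control, and ADM, the vasodilator adrenomedullin, at 766 with #665, at 2056 with #664 and at 1636 with #667, against 665 in control. Neither was called with #665, whereas the authors' deposited tables gave ANKRD37 2.52 and 2.48 and ADM 1.63 and 1.30 with the others. EGLN3, a hydroxylase that limits HIF, rose with #665 (1.82) but less than with #664 (3.94) or #667 (4.30), in the authors' deposited tables. LDHA, which makes lactate, fell with #665 (-0.46, SE 0.11, in the authors' deposited table) and lay below both other hairpins. The 1 member above both was the glucose transporter gene SLC2A1, at 21290 normalized counts with #665, 13630 with #664 and 11656 with #667, against 26767 in control.

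Metallothioneins, small metal-binding proteins, had 1 higher and 1 lower member of 7 with #665, against 5 higher of 8 with #664 and 8 of 8 with #667. With #665 each share was 14.3%, beside 19.6% higher and 21.3% lower of all its tested genes. The higher share was 62.5% with #664 and 100% with #667, beside 26.1% and 19.0%. MT2A rose to 29655 normalized counts with #665, 38315 with #664 and 45027 with #667, against 14496 in control. MT1F fell with #665 (-0.47, SE 0.18) and rose with #664 (0.47) and #667 (1.30), in the authors' deposited tables. Members of this family are near-identical, so the counting can split reads between them. Among 13 NF-kB targets 9 were higher and 2 lower with #665 (median 0.61), against 10 higher and 3 lower of 14 with #664 (median 0.97) and 6 higher and 3 lower of 12 with #667 (median 0.27). Their higher shares with #665, #664 and #667 were 69.2%, 71.4% and 50%, beside 19.6%, 26.1% and 19.0% of all tested genes. Their lower shares were 15.4%, 21.4% and 25%, beside 21.3%, 28.7% and 19.8%. By the test of the difference 4 NF-kB targets lay below #664 and none above it, while 3 lay above #667 and 1 below. Over all genes 7.22% lay below #664 and 5.49% above it, and 2.88% lay above #667 and 3.40% below it. LCN2, an iron-sequestering protein, was at 2.09 and the chemokine gene CCL20 at 1.02 with #665, against 4.44 and 2.15 with #664 and 2.42 and 1.82 with #667, in the authors' deposited tables. IER3, an early response gene, stood at 3457 normalized counts with #665, at 6380 with #664 and at 8295 with #667, against 5489 in control. FOSB, of the same kind, rose with #665 (2.24, SE 0.19), #664 (1.72) and #667 (1.28) in the authors' deposited tables, and neither difference passed.

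Some of the largest effects of other hairpins were smaller or not called with #665. BHLHE40, a clock-related repressor, stood at 802 normalized counts with #665, at 4810 with #664 and at 2875 with #667, against 922 in control. FGFR1, a growth factor receptor, stood at 2247 normalized counts with #665, at 1004 with #664 and at 620.1 with #667, against 2413 in control. In the authors' deposited table of #665 neither BHLHE40 (-0.20, SE 0.15, adjusted p = 0.319) nor FGFR1 (-0.10, SE 0.11, adjusted p = 0.477) was called. IGFBP1, a growth factor binding protein, was not called either (-0.18, SE 0.17), while IGFBP3 rose with #665 (2.21, SE 0.37) but less than with #664 (4.34) or #667 (5.16), in the authors' deposited tables. GSTA1, a glutathione transferase, rose to 756 normalized counts with #665, 8355 with #664 and 835 with #667, against 124 in control. It was called with #665 (2.60 in the authors' deposited table), at a level far below that with #664 but near that with #667. Of the 178 genes higher with #665 than with both, 64 were not called with #665 and lowered by both others, and of the 287 lower with #665 than with both, 108 were not called with #665 and raised by both others.

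The next lists stand beside 21.3% of all tested genes called lower and 19.6% higher with #665. With #664 these shares were 28.7% and 26.1%, and with #667 19.8% and 19.0%. By the test of the difference, #665 lay below #664 in 7.22% of all genes and above it in 5.49%. It lay below #667 in 3.40% and above it in 2.88%. Genes of DNA replication were lower with #665 in 27 of 34 measured cases (79.4%) and higher in 1 (median -0.47). With #664, 24 were lower and 1 higher, and with #667 18 were lower and none higher. By the test of the difference 5 replication genes lay below #664, none above it and none apart from #667. The replication clamp gene PCNA was at -0.73 (SE 0.09), the nucleotide reductase gene RRM2 at -0.85 and GINS2, of the replicative helicase, at -1.20, in the authors' deposited table of #665, and the 1 higher was the polymerase gene POLE (0.40). Mitosis genes had 14 lower (48.3%) and 5 higher (17.2%) of 29 with #665 (median -0.31). With #664 they had 15 lower and 8 higher, and with #667 12 lower and 4 higher. The centromere histone gene CENPA was at -1.32, while the motor gene CENPE was at 0.95 and the topoisomerase gene TOP2A at 0.78 in the authors' deposited table. Targets of p53 had 14 lower (58.3%) and 2 higher (8.33%) of 24 with #665. With #664, 12 were lower and 5 higher, and with #667 13 were lower and 1 higher. By the test of the difference 6 p53 targets lay below #664 and none above it, while 3 lay above #667 and none below. The cell cycle inhibitor gene CDKN1A was at -0.68 in the authors' deposited table of #665. The unfolded protein response had 10 lower (55.6%) and 2 higher (11.1%) of 18 with #665 (median -0.28). With #664, 11 were lower and 3 higher (median -0.23), whereas with #667 5 were lower and 7 higher (median 0.13). By the test of the difference 4 members lay below #667 and 1 above it, while 2 lay above #664 and none below. The transcription factor gene XBP1 of this response was at -0.89 and the chaperone-like MANF at -1.01 in the authors' deposited table of #665. Lysosomal genes had 11 lower (55%) and none higher of 20 with #665, against 11 lower and 1 higher with #664 and 11 lower and 3 higher with #667. Among them LIPA, which frees cholesterol from its esters, was set apart, at -0.58 with #665, -0.09 with #664 and 0.35 with #667 in the authors' deposited tables.

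**Figure D4:**
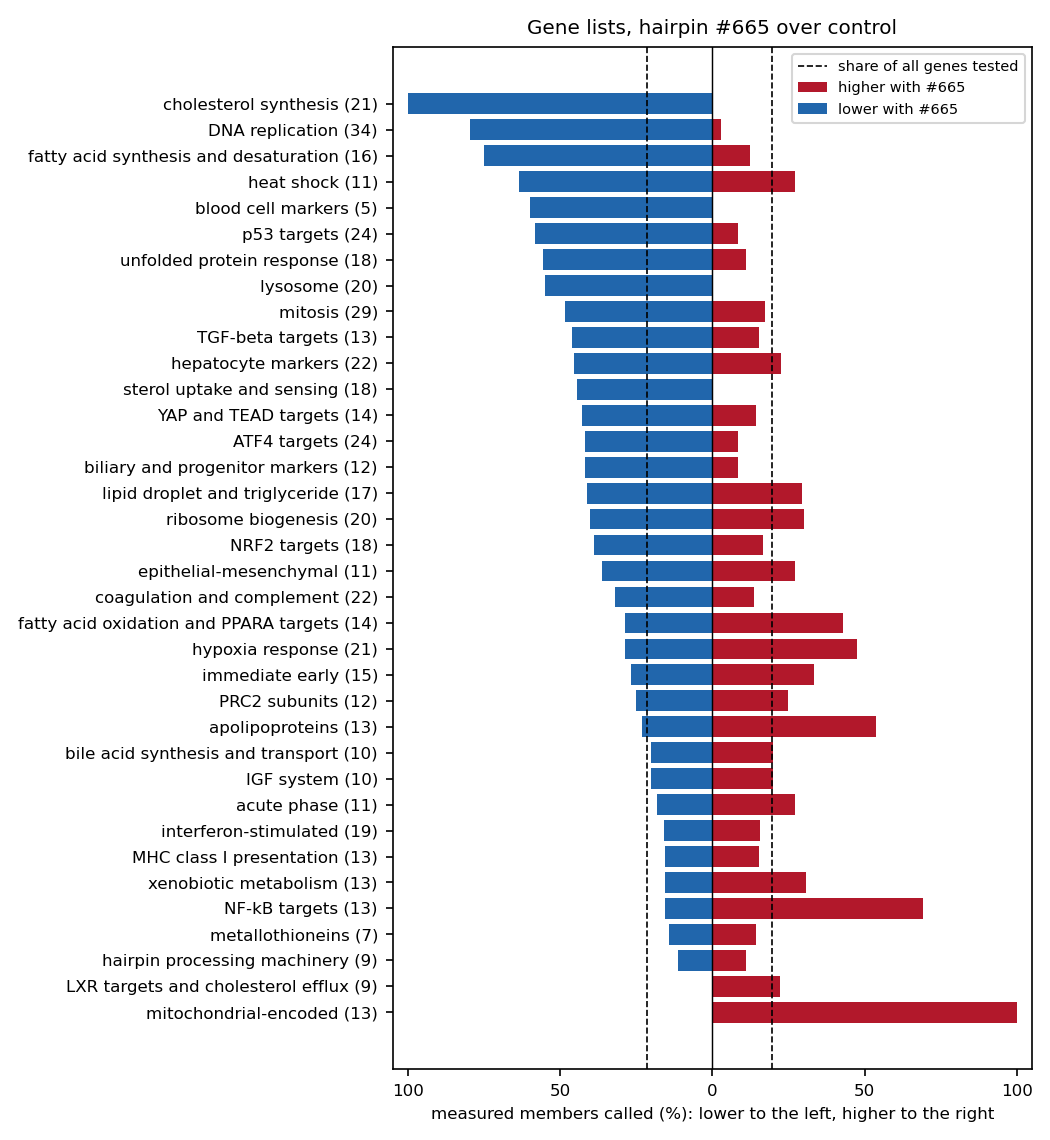
Share of the measured members of each list (number in brackets) that were called lower (bars to the left) or higher (bars to the right) with #665, in percent, for the lists with at least 5 measured members; dashed lines mark the shares over all tested genes, 21.3% lower and 19.6% higher. Cholesterol synthesis reaches 100% lower and the mitochondrial-encoded genes 100% higher.

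All 13 mitochondrial-encoded genes were higher with #665 (median 2.03, range 1.82 to 2.23), and their summed level was 5254672 normalized counts with #665, against 1312132 in control. They were also all higher with #664 (median 1.72), with #667 (1.78) and in the libraries labelled shEZH2 (2.32), against the same control libraries. The row named 5_8S_rRNA, a ribosomal RNA, moved the same way, at 1.56 (SE 0.15) with #665, 1.67 with #664 and 1.65 with #667 in the authors' deposited tables. The part of these shifts in the other results was not tested. Long non-coding genes were called higher in 22.9% and lower in 5.09% of 2102 cases with #665 (median 0.41), against 18.8% higher and 25.1% lower of 12668 protein-coding genes (median -0.05). They leaned the same way with #664 (23.0% higher and 9.08% lower) and #667 (17.2% and 5.41%). So they did in the libraries labelled shEZH2 (35.4% and 8.19%). Among markers of other cell types few rose with #665. Of 5 measured blood cell markers 3 were lower and none higher, and their summed level was 51981 normalized counts with #665, against 82932 in control, nearly all of it LYZ. With #664, and also with #667, 3 of these 5 were higher and 1 lower. By the test of the difference 2 lay lower with #665 than with both. Of 3 fibroblast markers COL1A1 was lower with #665 (-1.14 in the authors' deposited table) and PDGFRB higher (0.59), and neither of the 2 measured endothelial markers was called. Of 12 biliary and progenitor markers 5 were lower (41.7%) and 1, SOX4, was higher (8.33%), beside 21.3% and 19.6% of all tested genes.

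By size alone, the extremes of the table were mostly rows that also moved with the other hairpins. Where the mean reached 100, the 8 highest changes among called genes included CU634019.1 (11.84, SE 1.59), AC073641.1 (10.81, SE 1.48) and the readthrough transcript ZFP91-CNTF (10.29, SE 1.06) in the authors' deposited table of #665. Among the 8 lowest were AC006064.6 (-10.01, SE 1.48) and AC068547.1 (-9.91, SE 1.47). Of these 16 genes 6 had an SE over 1, and in 9 the SE exceeded the usual SE at that mean by more than 1 (log2), so their sizes are imprecise. MDFI, an inhibitor of myogenic factors, was among the 8 highest, at 237 normalized counts with #665, 43 with #664 and 282 with #667, against 9.85 in control. NGFR, a neurotrophin receptor, was at -2.83 (SE 0.19) with #665, at -3.71 with #664 and at -5.00 with #667 in the authors' deposited tables.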

How the data were processed

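RNA was sequenced from HepG2 cells carrying hairpin #665 and from control cells, 2 libraries each. STAR 2.4.2, Salmon and GRCh38 are named per the submitters' processing notes; which kit and settings were used per library is not given in the sources used here. Per the file headers, the authors deposited for each comparison a mean normalized signal per gene (a normalized count), a log2 fold change with its SE on the log2 scale, a test statistic (a score) and raw and adjusted p-values, as DESeq2 lays them out. In the deposited tables the score equalled the log2 fold change over its SE, and adjusted p-values followed Benjamini-Hochberg. Library depths are unknown; the means summed to 33812186 normalized counts for #665, 40979203 for #664 and 33907321 for #667.

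Group levels were rebuilt as the control level, 2 times the mean over 1 plus the linear fold change, and that level times the fold change. Tables were put on the scale of #665 through the shared control (shift -0.250 for #664 and 0.003 for #667 on the log2 scale). Differences between hairpins were divided by the root of their summed variances, tested two-sided against the normal distribution and adjusted by Benjamini-Hochberg over 15908 (#664) or 15720 (#667) genes. This leaves out the covariance of the shared control. That covariance is positive by design, so the SE of a difference is too large and the test conservative. A difference that did not pass is therefore no sign of equal change. The step was tested on simulated data drawn with the deposited SEs. Such data cannot show whether those SEs hold with 2 libraries per group. Python 3.11.15, pandas 2.3.3, numpy 2.4.6, scipy 1.17.1 and matplotlib 3.10.9 were used. Coordinates are 1-based from GENCODE 29 (GRCh38), and promoters are from RefSeq (GRCh38.p14).

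The hairpin and the gene lists were chosen with earlier results of these data known. The rule for named genes took SREBF2, the 8 highest and 8 lowest changes, up to 4 members of each list by smallest adjusted p, the 6 highest and 6 lowest set-apart genes, the 4 largest differences each way and the genes called the other way by both other hairpins. A few genes the rule or lists name are not reported here and others are left unprinted, and further members and set-apart genes were named after their values were seen. Alternatives were other minimum means, thresholds, p-value cut-offs, an assumed correlation of 0.5 for the shared control, length centring and protein-coding genes alone. The same correlation was taken for every gene. It can exceed the real one where the SEs of the hairpins differ, so its counts may be too high.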

Additional observations from a re-analysis of the deposited data

Results flagged for a closer look

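For 40 genes called with #665, the authors' deposited tables called both other hairpins in the opposite direction, and the differences of #665 from #664 and from #667 both passed. Of these, 26 fell with #665 and rose with the others. The plasma and liver proteins among them were AFP (-0.87 with #665), RBP4 (-0.47), APOA5 (-0.38), the conjugating enzyme gene UGT2B10 (-0.59) and the chemokine gene CCL16 (-0.58). Genes of fatty acid handling were SLC27A2 (-0.66), PHYH (-0.66) and ACSL5 (-0.47), and HIBADH (-0.26) is of valine breakdown. Genes induced early or by stress were IER3 (-0.67), ZFP36 (-0.60), ERRFI1 (-0.57), GDF15 (-0.47) and MT1F (-0.47). The rest were TMEM45B (-1.19), DDAH1 (-1.04), CD14 (-0.89), GLRX (-0.67), GGH (-0.63), RTN4RL2 (-0.52), LRP11 (-0.39), C4orf3 (-0.34), AK4 (-0.30), COX7A2 (-0.30), C11orf24 (-0.29) and SEPHS2 (-0.27), all values of #665 in the authors' deposited table.

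The other 14 rose with #665 and fell with both others. In the authors' deposited table of #665 they were CCND2 (1.05), the actin-binding TMSB4X (0.76), CDKN2A (0.74), TIMP1 (0.62), ANKRD52 (0.50), COL26A1 (0.49), DOK6 (0.46), the heparan sulfate proteoglycan gene SDC3 (0.42), AREG (0.41), a ligand of the EGF receptor, IGDCC3 (0.37), TSPYL4 (0.35), SOBP (0.33), FBLIM1 (0.27) and IRX3 (0.24). SDC3 stood at 512 normalized counts with #665, at 103 with #664 and at 136 with #667, against 384 in control, and AREG at 1453 with #665, at 493 with #664 and at 399.8 with #667, against 1097 in control. GDF15, a stress hormone, stood at 11324 normalized counts with #665, at 34971 with #664 and at 20459 with #667, against 15688 in control.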

How the results depend on the processing

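Of 42 alternatives to the counts over all genes, 34 stayed within 1.5 times and 8 did not. With a change of at least 2-fold required, 1203 genes were higher and 404 lower with #665, so that 74.9% of calls were higher, against 47.9% without it. Among such 2-fold changes 1041 genes were repeated by both other hairpins and 239 by neither. The assumed correlation of 0.5 for the shared control raised the genes differing from #664 to 3857 and those differing from #667 to 2840. It raised those set apart to 688 and those differing from both to 1409, and the last of these 4 counts was chosen after seeing the data. The 201 genes were among the 688. Also chosen after seeing the data, length centring left 1869 and 959 differences, 186 genes set apart (53 higher and 133 lower with #665) and 439 differing from both, and protein-coding genes alone gave 2380 higher and 3182 lower. List counts and the values of named genes were recomputed under 2 settings only, centring on the median (0.01) and adjustment over the tested genes, which change little by construction. List counts stayed within 1.5 times and SREBF2 and the 175 other named genes kept direction and call under both. No paired analysis was possible because the tables hold comparisons and not values per library, and for the same reason no library could be left out and library depth sets no stated limit here. All comparisons rest on 1 pair of control libraries, so a deviation of that pair enters every change over control, though not the differences between hairpins. Rebuilt levels carry no spread per library.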
